A study of Mus musculus with 2 samples.

Results

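Histone genes encode the proteins around which nuclear DNA is wound, and their signals are described here in cells labelled ILCreg, a regulatory innate lymphoid cell, sorted from the small intestine. Members were the features (transcript clusters) of a whole-transcript array that carried exactly 1 gene symbol in the platform annotation and whose symbol began with Hist1h to Hist4h, H2af, H3f3, H1f, H2bc, H2ac, H3c or H4c. This gave 46 features of 61344 and 45 genes of 28278 named genes, because Hist1h4b had 2 features. Of these genes, 29 were clustered, that is, they lay in the histone gene clusters Hist1 (22 genes), Hist2 (6) and Hist3 (1), and 16 were variant genes that lie elsewhere. All cells came from small intestines of 8-week-old C57BL/6 mice with the IL-10-GFP knockin genotype, a reporter for interleukin 10, and the only group consisted of 2 arrays, replicate 1 and replicate 2. The labels give no treatment, do not say whether the arrays came from separate mice or sorts, and do not give the gates of the sort, so the spread between the arrays may be technical. Post-sort purity was stated as over 95%.

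Histones H2A, H2B, H3 and H4 form the protein core of the nucleosome, and the linker histone H1 binds the DNA where it enters and leaves that core. Most genes of the clusters are replication-dependent: they are transcribed mainly in S phase, when new DNA has to be packaged, and their messenger RNAs end in a stem-loop rather than in a poly(A) tail. Most variant, or replacement, histones, such as H2A.Z and macroH2A, are made throughout the cell cycle from polyadenylated transcripts, often of genes with introns. They are placed at particular sites by dedicated chaperones. Lymphocytes that divide rapidly need large amounts of the first class, whereas resting cells rely more on the second.

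Signals are the authors' deposited values, taken as log2 from their range (2.1 to 19.86 over all features). A gene was called above the threshold if its signal exceeded, on both arrays, the 95th percentile of 1676 olfactory, vomeronasal and taste receptor genes, which was 6.74 for replicate 1 and 6.17 for replicate 2. Paired values are given in that order throughout. Of all named genes 31.8% met this, of protein-coding genes outside the reference 39.0%, and of the reference genes 2.39%. Of 9 measured markers of ILCregs and lymphocytes 8 passed, including Il10 at 10.59 and 11.05, whereas Thy1 did not. Markers of other cells also passed: 4 of 5 for T cells, 3 of 4 for B and plasma cells, all 5 for macrophages, 6 of 7 for epithelium and all 5 for stroma, with 1 of 4 for mast cells. Which cells gave the histone signals was not tested, and in such bulk RNA fewer cells of a type and less RNA per cell cannot be told apart. A single group allows no comparison of groups, and p-values are therefore absent. Probes differ in affinity, so signal is read against the threshold and does not order genes by abundance.

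Of the 45 histone genes 19 (42.2%) lay above the threshold on both arrays, another 4 did so on just 1 array and 22 stayed below on each. The clustered genes passed in 10 of 29 cases (34.5%), close to the 31.8% of all named genes, and their median signal was 5.72 and 5.53, against 5.49 and 5.38 for all named genes. The variant genes passed in 9 of 16 cases (56.2%), beside the same shares, with medians of 8.94 and 9.27. RefSeq lists 7 of the 45 as pseudogenes; without them the counts were 9 of 27 clustered and 6 of 11 variant genes. The count of clustered genes depended on the threshold. At the 99th percentile of the reference, which 20.1% of all named genes exceeded on both arrays, 5 of 29 clustered genes (17.2%) and the same number of variant genes as before, 9 of 16, passed.

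**Figure D1:**
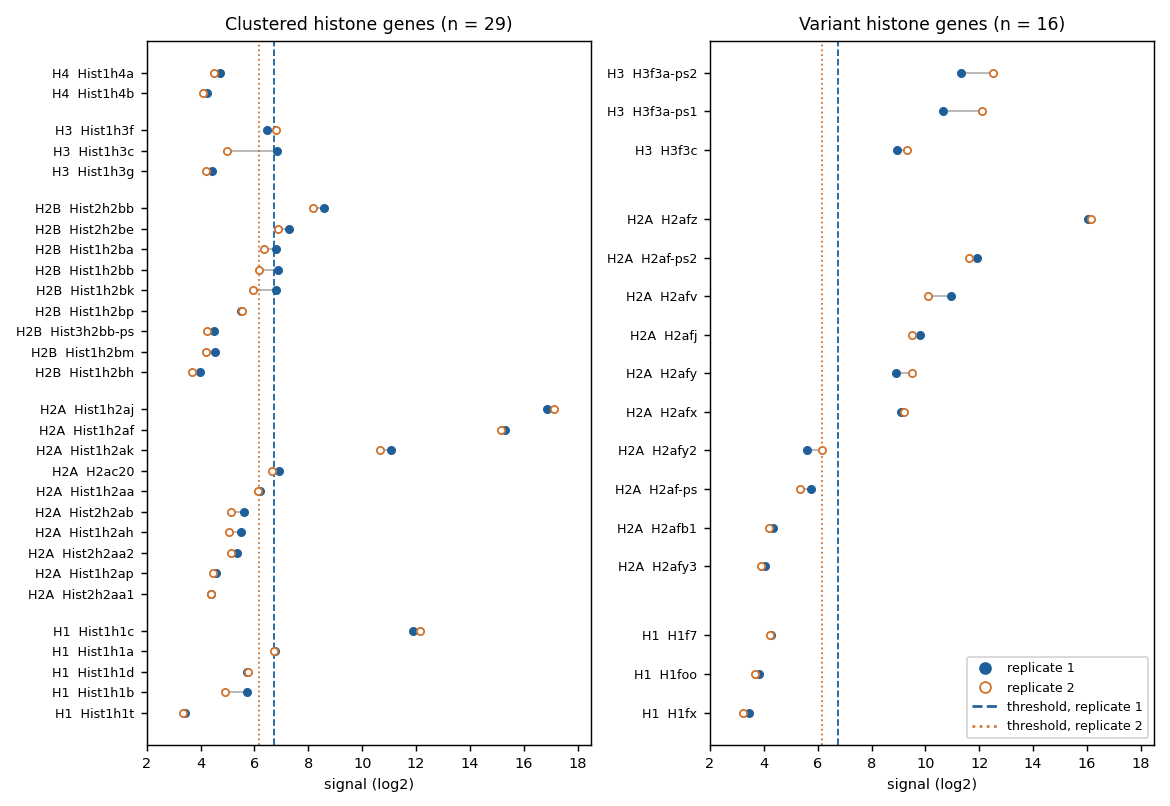
Signal on the log2 scale of each histone gene on the arrays of replicate 1 (filled) and replicate 2 (open), for 29 clustered and 16 variant genes grouped by histone type; vertical lines mark the reference threshold of each array, 6.74 and 6.17. Clustered genes are mostly left of or near the lines, with Hist1h1c, Hist1h2af, Hist1h2aj and Hist1h2ak far to the right, and 9 variant genes lie to the right of both lines.

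Linker histone genes among the members were divided, with a single clustered subtype well above the threshold. Hist1h1e and H1f0, also linker histone genes, were not among the members, so the family is covered only in part. Hist1h1c, which encodes the subtype H1.2, gave 11.90 and 12.14, a mean of 12.02 ± 0.17 (SD, n = 2), the form of error also given for later genes. Hist1h1a gave 6.76 and 6.72 and thus passed by 0.02 on the first array and 0.55 on the second; it did not pass at the 99th percentile. Hist1h1d (5.72 and 5.76) and Hist1h1b (5.72 and 4.92) were below on both arrays. Hist1h1t, the testis-specific linker histone gene of the cluster, had 3.44 and 3.34. None of the 3 variant H1 genes passed, beside 39.0% of protein-coding genes outside the reference. H1fx, the replacement histone H1.10 gene, gave 3.45 and 3.23, the oocyte gene H1foo 3.81 and 3.66, and the spermatid gene H1f7 4.27 and 4.23.

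The promoters of the somatic clustered H1 genes among the members are shown because these genes share the place of a CCAAT but not a call. Each line gives the 150 bases before the start of the gene from RefSeq, build GRCm38.p6, 5′ to 3′ on the strand of the gene, with CCAAT (reverse complement ATTGG) and the motif TATAAA (reverse complement TTTATA) in capitals. The window of Hist1h1c is at chr13:23738657-23738806 (plus strand), that of Hist1h1a at chr13:23763518-23763667 (plus), Hist1h1d at chr13:23554882-23555031 (plus) and Hist1h1b at chr13:21780626-21780775 (minus).
Hist1h1c: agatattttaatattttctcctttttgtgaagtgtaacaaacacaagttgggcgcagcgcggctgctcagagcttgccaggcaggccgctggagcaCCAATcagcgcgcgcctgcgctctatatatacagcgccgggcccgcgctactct
Hist1h1a: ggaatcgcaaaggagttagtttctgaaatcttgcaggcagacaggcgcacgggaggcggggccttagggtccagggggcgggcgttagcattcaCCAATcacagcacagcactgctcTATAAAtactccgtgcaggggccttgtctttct
Hist1h1d: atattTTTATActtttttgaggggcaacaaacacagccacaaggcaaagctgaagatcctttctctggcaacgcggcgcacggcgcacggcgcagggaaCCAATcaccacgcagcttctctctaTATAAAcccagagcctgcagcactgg
Hist1h1b: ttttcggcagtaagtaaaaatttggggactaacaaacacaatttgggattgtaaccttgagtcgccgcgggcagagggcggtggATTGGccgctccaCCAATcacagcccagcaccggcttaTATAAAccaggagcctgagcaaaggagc

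All 4 windows hold a CCAAT on the gene's own strand, whose first base lies 54 bases before the start for Hist1h1c, 56 for Hist1h1a, 51 for Hist1h1d and 53 for Hist1h1b. CCAAT is the sequence recognised by the trimeric factor NF-Y. A TATAAA, the form of the TATA box searched, follows at 33, 26 and 28 bases before the start in Hist1h1a, Hist1h1d and Hist1h1b. Hist1h1b also holds an ATTGG at 66 bases and Hist1h1d a TTTATA at 145. The window of Hist1h1c, of these genes the one that passed at the 99th percentile, holds no TATAAA in these letters.

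Clustered H2A genes passed in 4 of 10 cases (40.0%), beside 39.0% of protein-coding genes outside the reference. Hist1h2af gave 15.31 and 15.17 (15.24 ± 0.10), Hist1h2ak 11.07 and 10.67 (10.87 ± 0.28), and Hist1h2aj 16.86 and 17.11 (16.99 ± 0.17). All 3 were more than 4 above the threshold on each array, but Hist1h2aj is listed by RefSeq as a pseudogene, under the symbol H2ac14. H2A genes of the clusters are near-identical copies in their coding part, so probes of a feature with 1 symbol may still share signal with other copies, and these 3 values are uncertain for that reason. H2ac20, the former Hist2h2ac, passed by little, with 6.92 and 6.66, and not at the 99th percentile. The other 6, Hist1h2aa, Hist1h2ah, Hist1h2ap, Hist2h2aa1, Hist2h2aa2 and Hist2h2ab, had means between 4.39 and 6.18 and were below on both arrays.

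The promoters of Hist1h2af (chr13:23533725-23533874, plus strand) and Hist1h2ak (chr13:21753913-21754062, minus), which passed clearly, and of Hist1h2ah (chr13:22035644-22035793, minus), which did not, are given in the same way for comparison.
Hist1h2af: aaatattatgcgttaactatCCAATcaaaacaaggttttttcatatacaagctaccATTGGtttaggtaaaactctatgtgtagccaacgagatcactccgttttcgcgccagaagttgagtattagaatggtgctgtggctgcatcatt
Hist1h2ak: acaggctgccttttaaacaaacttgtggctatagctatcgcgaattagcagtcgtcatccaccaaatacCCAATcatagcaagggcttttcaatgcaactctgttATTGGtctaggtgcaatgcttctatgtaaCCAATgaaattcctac
Hist1h2ah: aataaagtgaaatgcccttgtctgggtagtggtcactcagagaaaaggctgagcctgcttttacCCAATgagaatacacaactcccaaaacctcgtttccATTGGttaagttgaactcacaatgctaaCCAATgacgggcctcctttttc

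CCAAT or its reverse complement occurs 2 times in the window of Hist1h2af and 3 times in each of the others, and TATAAA in none. The 3 occurrences before Hist1h2ak begin 81, 45 and 16 bases before the start, and those before Hist1h2ah 86, 50 and 22 bases before it. Whether the number or place of these motifs bears on the signal was not tested.

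Clustered H2B genes passed in 4 of 9 cases (44.4%), beside 39.0% of protein-coding genes outside the reference. Another 9 features carried several H2B symbols, and 7 of them passed, with means of up to 13.72, but no gene is named from those. Hist2h2bb, of the Hist2 cluster, gave 8.58 and 8.16 (8.37 ± 0.29). It was the only H2B gene with a feature of its own that also passed at the 99th percentile. Hist2h2be, which encodes an H2B form known from olfactory neurons, gave 7.30 and 6.89 (7.09 ± 0.29). Hist1h2bb gave 6.88 and 6.18, which is 0.14 and 0.01 above the threshold, and Hist1h2ba 6.79 and 6.35. Hist1h2bk exceeded the threshold in replicate 1 alone (6.81 and 5.95). Hist1h2bh, Hist1h2bm, Hist1h2bp and the pseudogene Hist3h2bb-ps had means between 3.83 and 5.52. The margins of Hist1h2bb and Hist1h2ba are smaller than the spread of the arrays, which was 0.31 on the log2 scale as an SD over all named genes.

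None of the 3 clustered H3 and 2 clustered H4 genes with a symbol of their own passed on both arrays, beside 39.0% of protein-coding genes outside the reference. Hist1h3c gave 6.85 and 4.99, and so exceeded the threshold on the first array only. Hist1h3f gave 6.47 and 6.80 and exceeded it on the second only, and Hist1h3g was below on both with 4.42 and 4.19. The H4 genes Hist1h4a (4.71 and 4.48) and Hist1h4b (4.25 and 4.08 on the feature used, 4.03 and 3.78 on the other) were below as well. Many genes of both families had no feature of their own. Another 7 features carried several symbols of clustered H3 genes and 11 several H4 symbols, and no gene is named from those. Of the 7, 4 passed, with means of up to 7.78, and of the 11, 5 passed, with means of up to 13.71. The clustered H4 genes all encode the same protein.

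Variant H2A genes passed in 6 of 10 cases (60.0%), beside 39.0% of protein-coding genes outside the reference. H2afz, which encodes H2A.Z, a variant placed at promoters and enhancers, gave 16.04 and 16.16 (16.10 ± 0.08). Its close relative H2afv gave 10.94 and 10.11 (10.53 ± 0.59), so the arrays differed more for it than for H2afz. H2afx encodes H2A.X, which is phosphorylated around DNA breaks, and gave 9.08 and 9.21 (9.15 ± 0.09). H2afj, whose variant protein is known from senescent and luminal epithelial cells, gave 9.80 and 9.50 (9.65 ± 0.21). All 4 stayed above the threshold at the 99th percentile.

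The macroH2A genes, whose products carry a large extra domain and are associated with silent chromatin, were split. H2afy, which encodes macroH2A1, gave 8.92 and 9.49 (9.20 ± 0.40) and passed. A second feature of the same gene, listed under its newer symbol Macroh2a1 and so outside the symbol rule, gave 5.23 and 4.44 and did not pass, so the features of this gene disagree. The median of both features left H2afy above the threshold by 0.33 in replicate 1, where the feature used lay 2.18 above it. H2afy2, which encodes macroH2A2, gave 5.62 and 6.17, below the threshold on the first array and level with it on the second. H2afy3, listed by RefSeq as a pseudogene, gave 4.06 and 3.90, and H2afb1, an H2A-like gene of spermatids now named H2al2a, gave 4.36 and 4.20. Of the H2A pseudogenes H2af-ps2 was above the threshold with 11.92 and 11.63 and H2af-ps below with 5.75 and 5.36.

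The promoters of H2afz (chr3:137864337-137864486, plus strand) and H2afv (chr11:6444444-6444593, minus) are shown to set the variant genes beside the clustered ones, with the same letters in capitals.
H2afz: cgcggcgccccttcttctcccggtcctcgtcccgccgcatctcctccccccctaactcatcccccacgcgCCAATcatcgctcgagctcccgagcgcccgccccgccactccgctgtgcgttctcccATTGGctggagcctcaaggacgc
H2afv: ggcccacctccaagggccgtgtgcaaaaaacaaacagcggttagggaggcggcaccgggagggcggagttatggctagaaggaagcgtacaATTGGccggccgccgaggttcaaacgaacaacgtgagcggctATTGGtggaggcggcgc

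Both hold CCAAT or its reverse complement 2 times and no TATAAA. In the window of H2afz the occurrences begin 80 and 23 bases before the start, and in that of H2afv 59 and 17 bases before it.

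All 3 variant H3 features with 1 symbol passed, beside 31.8% of all named genes. H3f3c, a gene related to those of the replacement histone H3.3, gave 8.96 and 9.33 (9.15 ± 0.26). The H3.3 pseudogenes H3f3a-ps1 (10.66 and 12.11) and H3f3a-ps2 (11.32 and 12.50) passed as well. A further 2 features carried several H3.3 symbols each, from which no gene is named, and gave 10.08 and 10.35, and 9.63 and 9.72. Processed pseudogenes resemble the transcripts of their parent genes, so the signals of these features may be shared and are uncertain.

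Histone genes known from germ cells were below the threshold, with 1 exception close to it. Of 6 such genes, Hist1h1t, Hist1h2aa, Hist1h2ba, H1f7, H1foo and H2afb1, 1 passed: Hist1h2ba, which encodes the testis H2B form TH2B, by 0.05 and 0.19. It did not pass at the 99th percentile. None of 6 spermatogenic marker genes passed, beside the same shares. Their means lay between 3.88 and 5.48, with the transition protein gene Tnp1 at 3.91 and 3.84.

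Along the Hist1 cluster, genes above and below the threshold lay side by side. RefSeq GRCm38.p6 lists 55 histone genes there, 23 in the first block and 32 in the second. The 22 members include 2 above the threshold of 8 in the first block and 5 of 14 in the second. Together these were 7 of 22 (31.8%), the same share as over all named genes (31.8%). In all, 11 pairs of members were direct neighbours in the RefSeq gene order, in the Hist1 and Hist2 clusters. Both genes of 1 pair were above the threshold on both arrays, a single gene in 5 pairs and neither in 5. Pairs of other neighbouring genes were not counted, so these counts have no like background. The pair with both was H2ac20 and Hist2h2be of the Hist2 cluster. Hist1h2aj (16.86 and 17.11) and its neighbour Hist1h2bm (4.54 and 4.19) were a pair with a single one, as were Hist1h2af and Hist1h3g (4.42 and 4.19), and Hist1h1c and Hist1h3c. Core histone genes often share a promoter region with a neighbour transcribed away from it. Strands of both genes were at hand for 2 such pairs of an H2A and an H2B gene. Hist1h2ah with Hist1h2bk had neither gene above on both arrays, and Hist1h2ba with Hist1h2aa only the first. For the H2A and H2B neighbours H2ac20 with Hist2h2be and Hist1h2aj with Hist1h2bm the strands were not at hand. Whether those pairs are of this kind was not determined.

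**Figure D2:**
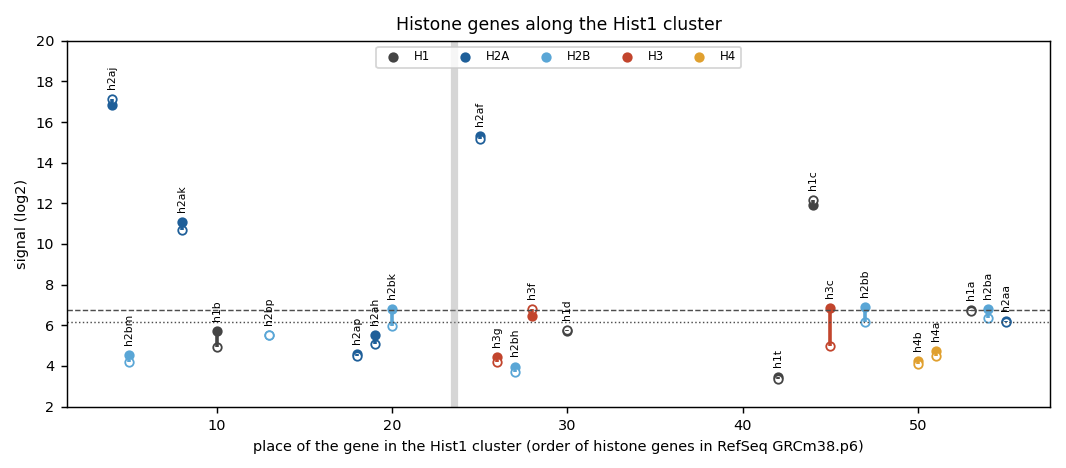
Signal on the log2 scale of the 22 members of the Hist1 cluster on the arrays of replicate 1 (filled) and replicate 2 (open) by the place of the gene among the 55 histone genes of the cluster, coloured by histone type and labelled without the prefix Hist1; the grey bar parts the 2 blocks and the dashed and dotted lines are the thresholds of 6.74 and 6.17. Single genes such as Hist1h2aj, Hist1h2af and Hist1h1c stand high beside neighbours near or below the lines.

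The promoters of the clustered genes shared sequence beyond the H1 group. RefSeq windows were at hand for 35 of the 45 genes, 25 clustered and 10 variant. The 250 bases before the start were searched on both strands for CCAAT and TATAAA, motifs that do not overlap each other. The windows themselves can overlap: those of Hist1h2ah and Hist1h2bk share most of their bases, and those of Hist1h2ba and Hist1h2aa also overlap. A motif in shared bases counts for both genes, so the windows are not independent. CCAAT or its reverse complement occurred in 24 of 25 clustered genes (96.0%) and in 4 of 10 variant genes (40.0%), beside 37.5% of 27025 genes with such windows. TATAAA or its reverse complement occurred in 10 of 25 clustered genes (40.0%) and 0 of 10 variant genes, beside 14.3% of all. Among the clustered genes with a window, CCAAT was present in 8 of 8 above the threshold and 16 of 17 that were not, and TATAAA in 4 of 8 and 6 of 17. The exception without CCAAT was Hist1h4b. A match describes these letters only; a factor bound there was not measured.

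Clustered histone genes were mostly lower on the array of replicate 2. The difference was taken as replicate 2 minus replicate 1, after subtracting the median over named genes (-0.05). It was below 0 in 23 of 29 clustered genes, with a median of -0.20, whereas 50% of all named genes are below 0 by construction and 44.2% of protein-coding genes outside the reference were. It was below 0 in 8 of the 9 clustered H2B genes (median -0.36), 8 of 10 H2A genes (-0.15), 2 of 3 H3, both H4 and 3 of 5 H1 genes. Among the 10 clustered genes above the threshold it was below 0 in 8, with Hist1h1c and Hist1h2aj at 0.29 each as the exceptions, beside 44.8% of all named genes above it. Among the 19 not above it on both arrays it was below 0 in 15 (median -0.18), beside 52.4% of such named genes. Of the 1676 reference genes, most of them also low in signal, 997 were below 0, with a median of -0.11. Most differences of the clustered genes were small: the largest among the 10 was that of Hist1h2bb, at -0.65. They compare 1 array with 1 and have no replicate check. Clustered genes whose probes share signal are not independent of each other.

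Variant genes had no common direction, with 8 of 16 below 0 and a median of -0.05. H2afv was at -0.79, and H2afy and H2afy2 were at 0.62 and 0.59, although the Macroh2a1 feature of the former was at -0.74. A difference of over 2-fold, that is past 1 in size, was seen in 3 of 45 histone genes, beside 3.45% of all named genes. In 1 gene, Hist1h3c, replicate 1 was the higher (-1.82), beside 1.97% of named genes; its value in replicate 2 lay 1.18 below the threshold of that array, so no fold is given. In 2 genes, H3f3a-ps1 and H3f3a-ps2, replicate 2 was the higher, by 2.82-fold and 2.34-fold (1.5 and 1.23), beside 1.48%. Of the 19 histone genes above the threshold on both arrays the 2 pseudogenes were past 2-fold, beside 4.15% of named genes above it. The 2 features with several H3.3 symbols differed by 0.32 and 0.13. On the same arrays the stromal markers Col1a1, Col1a2 and Col3a1 differed by 1.74 to 2.08, whereas Dpt lay at the highest value of each array and Dcn close to it, so their differences are not read. The proliferation marker Mki67 differed by 1.41, the largest value of the S phase and proliferation list. The median of that list was 0.07, with 6 of its 21 measured genes below 0. The median centred difference was 0.63 for the B and plasma cell markers, 0.55 for macrophages, 0.27 for T cells and 0.24 for ILCregs and lymphocytes. It was -0.18 for epithelium, where 4 of 7 genes were below 0, Fabp1 at -1.09. The part of these cells in the histone differences was not tested.

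**Figure D3:**
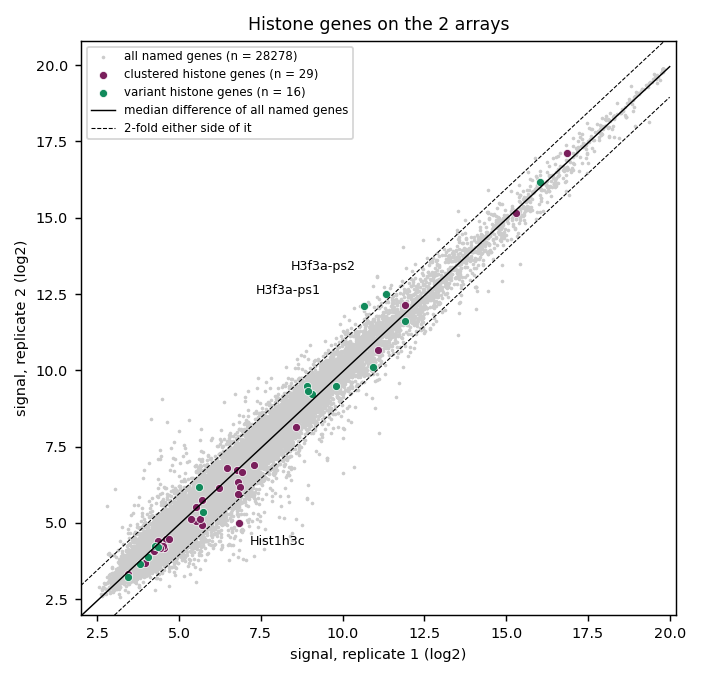
Signal on the array of replicate 2 against that of replicate 1, both log2, for all 28278 named genes (grey), 29 clustered and 16 variant histone genes; the solid line is the median over the named genes of replicate 2 minus replicate 1 and the dashed lines are 2-fold either side. Hist1h3c lies below the lower dashed line and H3f3a-ps1 and H3f3a-ps2 above the upper one, and the other histone genes lie between.

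Genes that make and place histones mostly lay above the threshold, which 39.0% of protein-coding genes outside the reference passed. Of 13 measured genes of histone mRNA processing and transcription 10 passed, with a median signal of 7.71 and 7.40. Slbp, whose product binds the stem-loop of histone messenger RNAs, gave 7.82 and 7.40, and Npat, the cyclin E-CDK2 substrate that activates histone gene transcription, 8.17 and 8.25. Casp8ap2, which encodes the histone locus body protein FLASH, gave 7.71 and 6.65, a centred difference of -1.01. Cpsf3, the endonuclease that cuts histone pre-mRNAs and also those of polyadenylated genes, gave 10.11 and 10.54. Lsm11, a U7 snRNP protein particular to histone mRNA processing, was the lowest of the 13 and below the threshold with 4.46 and 4.45. Lsm10, of the same list, passed with 8.18 and 7.80. At the 99th percentile 5 of the 13 passed, beside 20.1% of all named genes.

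Of 19 measured histone chaperones and exchange factors 16 passed, with medians of 8.12 and 8.31. Npm1, the nucleolar chaperone nucleophosmin, gave 15.54 and 15.59, Asf1b, which hands H3 and H4 to the assembly factors in dividing cells, 8.34 and 8.37, and Nasp, which protects soluble H3 and H4, 7.70 and 7.84. Ubn1, of the complex that places H3.3, gave 7.92 and 8.44. Chaf1a, the large subunit of the replication-coupled assembly factor CAF-1, exceeded the threshold only on the array of replicate 2 (6.54 and 6.65), and Tonsl, which reads newly made histones at forks, was below with 5.0 and 4.69. Cenpa, the centromeric H3 variant gene that the symbol rule does not take in, gave 8.73 and 9.01, and the other 3 such genes, Hils1, H2al1n and H2bfm, did not pass.

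Of 21 measured S phase and proliferation genes 14 passed (66.7%), beside 39.0% of protein-coding genes outside the reference, with medians of 7.20 and 7.52. Pcna, the replication clamp gene, gave 12.53 and 12.95, Mki67 11.05 and 12.41, and the topoisomerase gene Top2a 8.26 and 8.07. Tyms, the thymidylate synthase gene, gave 9.14 and 8.37, the ribonucleotide reductase gene Rrm2 exceeded the threshold only on the array of replicate 2 (6.47 and 6.86), and Gins2, which encodes a part of the replicative helicase, was below with 5.26 and 4.97. At the 99th percentile 7 of the 21 passed, beside 20.1% of all named genes.

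**Figure D4:**
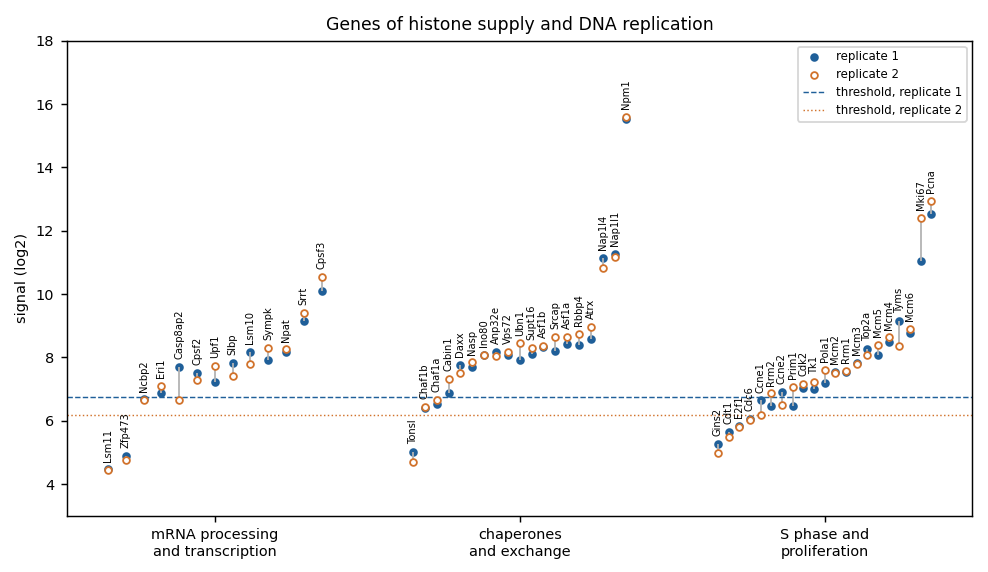
Signal on the log2 scale of 13 genes of histone mRNA processing and transcription, 19 of chaperones and exchange and 21 of S phase and proliferation on the arrays of replicate 1 (filled) and replicate 2 (open), ordered by mean within each list; lines mark the thresholds of 6.74 and 6.17. In each list most genes lie above both lines, with Lsm11, Tonsl and Gins2 lowest.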

How the data were processed

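RNA of the sorted cells was amplified with a whole-transcript Pico kit and 5.5 µg of cDNA was labelled and hybridised, per the labels' protocols. The deposited values are the authors' and were taken as log2 signal per feature from their range; the log base, scaling and centring are not stated, so folds hold only if the base is 2. The submitters' processing notes name MAS5, with no version or role; how probes were summarized, and on which build, was not given in the sources used here. Features were named where they carried 1 symbol (28573 features; 2014 carried several and 30757 none), updated through Entrez identifiers of RefSeq GRCm38.p6, and the feature with the highest mean signal stood for a gene. All 45 histone genes matched that table, 4 of them by symbol or synonym. None lay at the highest value of an array (19.80 and 19.86). Depth has no counterpart here, and the number of arrays limits the precision. Across named genes, which are not independent, the arrays correlated with r = 0.986. Every histone gene could be named. Of each pathway list, the highest, lowest and most different members and a few set genes were, with Lsm10 added beside Lsm11. The members and lists were chosen with earlier results of these data known. Alternatives were other thresholds, references, normalization, feature rules and single arrays. Scripts, checked on simulated data, used Python 3.11.15, pandas 2.3.3 and NumPy 2.4.6. Protein identity between members was planned and not computed, as no protein sequences were used here.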

Additional observations from a re-analysis of the deposited data

Results flagged for a closer look

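Features that carried several gene symbols were left out of all counts of histone genes, and 22 of the 43 such features with at least 1 histone symbol (51.2%) exceeded the threshold of each array, beside 31.8% of all named genes. Apart from the 2 features with H3.3 symbols, whose values stand with the variant H3 genes, they are signal outside the values used above. By type, 7 of 9 H2B features, 6 of 9 H3 (4 of 7 without the H3.3 features), 5 of 11 H4 and 4 of 12 H2A features passed, and the 2 features that mix types did not. Of the 39 with symbols of clustered genes, 32 had a centred difference below 0, toward replicate 1, with a median of -0.25, and of the 20 of these above the threshold 18 did, with a median of -0.35. Each H4 feature carried 13 symbols, so no gene is named, and features that share symbols are not independent of each other. The share of named genes and the centring rest on features with 1 symbol. The same shares over all features with several symbols were not computed, so these counts have no like background.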

How the results depend on the processing

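The 99th percentile of the reference moved 4 counts by over 1.5 times: clustered histone genes fell from 10 to 5, all named genes from 8981 to 5687, histone mRNA processing genes from 10 to 5 and S phase genes from 14 to 7. A stricter threshold lowers counts by construction. The clustered genes no longer called there were Hist1h1a, H2ac20, Hist1h2ba, Hist1h2bb and Hist2h2be. The 90th percentile added Hist1h2aa, Hist1h2bk and Hist1h3f. The count of all histone genes, 19, was 14 and 22 at these percentiles and 21 with either array alone; clustered genes were 11 without replicate 1 and 12 without replicate 2, and variant genes 10 and 9. The keratin-associated protein and Rhox reference (57 genes), the median over features and quantile normalization left the calls of all 45 genes as they were, but the median over features moved H2afy in replicate 1 from 2.18 to 0.33 above the threshold. The median difference of clustered genes ranged from -0.33 (members above the threshold, centred on named genes above it) to -0.14 (quantile normalization), and that of variant genes from -0.09 (no centring) to 0.12 (those above the threshold), with 0.01 without pseudogenes, an alternative chosen after seeing the data. Genes over 2-fold different numbered 3 under each alternative run. No paired analysis was possible because the series holds 1 group.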
